A study of Homo sapiens with 12 samples.

Results

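PANC1 is an established human line grown from a pancreatic ductal adenocarcinoma, and the comparison described here set PANC1 cells given ICG-001 against PANC1 cells given only the solvent, both for 12 h. Gene expression was measured on Illumina HumanHT-12 v4 BeadChips, on which labelled RNA binds to probes carried by beads and the brightness of each bead type is read as a signal intensity. The study treated PANC1 and the colon cancer line HCT116 with C646 at 10 uM, ICG-001 at 10 uM or the solvent alone (DMSO at 0.05%) and took RNA at 12 and 96 h, to ask how far a drug directed at one acetyltransferase acts like a drug directed at a pair of them. ICG-001 is a small molecule reported to bind the co-activator CBP, and C646 inhibits the acetyltransferase activity of both CBP and p300.

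Each treatment and time point had 1 column of values. The ICG-001 12 h column is a mean of 3 arrays and the DMSO 12 h column averages 2. Single-array values were not used here, so there is no replicate spread, no test and no p-value, and every difference below is a size between 2 columns. Other PANC1 columns were used for reference, namely DMSO 96 h, ICG-001 96 h, C646 12 h and C646 96 h, each averaging 2 arrays, along with the HCT116 ICG-001 and DMSO columns at 12 h. By the study's methods, cells for the 12 h treatments were denser when drug was added, whereas cells for the 96 h treatments were started sparser and passaged, so DMSO 12 h and DMSO 96 h differ in culture as well as in time. A PANC1 culture is a single carcinoma line with no stroma, and the columns describe that line only.

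Rows were kept when their signal lay above a detection limit in the ICG-001 12 h column, the DMSO 12 h column or both. Most rows in a column carry background only and form a peak of low log2 signals. The lower flank of that peak gives the background spread, and the limit was placed at the 99th percentile of a normal distribution with that spread. It came to a signal of 136.8 for DMSO and 135.2 for ICG-001. Of 34687 rows in the table, 17310 were kept. Of these, 14810 were above the limit in both columns, 1631 only with ICG-001 and 869 only with DMSO. Among the 17377 rows under the limit in both columns, which hold background signal, the log2 ratio had an SD of 0.07. This is a measure of noise for dim rows and not of the spread between cultures.

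Many of the genes with the largest ratios belong to the integrated stress response. In this pathway, kinases that sense amino acid shortage, misfolded protein, missing haem or double-stranded RNA phosphorylate the translation factor eIF2, general translation slows, and the mRNA of the transcription factor ATF4 is translated more. ATF4, often as a dimer with a C/EBP protein, then raises genes for amino acid synthesis, amino acid import and tRNA charging, together with regulators such as TRIB3, DDIT3 (CHOP) and CEBPB. A second set of interest is the cholesterol pathway, which the transcription factor SREBP2 switches on when membrane sterol is low.

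ATF4 acts through a composite C/EBP-ATF element whose core can be written TGATGNAA. Promoter sequences were taken from RefSeq (GRCh38.p14), from 250 bases before to 50 bases after the start of each gene, and both strands were searched. The letters occurred in 1003 of 27305 promoters (3.67%) and in 170 of the 9840 genes kept that have a promoter in the table (1.73%). Among genes at least 1.5-fold higher with ICG-001 they occurred in 15 of 217 (6.91%), and among genes at least 1.5-fold lower in 1 of 31 (3.23%). Of 50 genes from 4 lists of ATF4-linked genes described below, 13 held them. Of these, AARS1, ASNS, ATF3, CARS1, CHAC1, GOT1, SLC3A2 and SLC7A1 were at least 1.5-fold higher. These 8 are among the 15 rises with the letters, so that share rests in large part on genes listed as ATF4-linked. IARS1 (log2 ratio 0.27), SLC38A1 (0.44), TARS1 (0.52) and NARS1 (0.53) carried the letters and did not reach that threshold, and MARS1 could not be matched to a row. A match of letters describes the sequence and does not show binding. Parts of 4 of these promoters are printed, 1 each for asparagine synthesis, glutathione breakdown, tRNA charging and aspartate synthesis, so that the element can be seen in its surroundings. They run 5′ to 3′ on the strand of the gene and end before its start, with the matching letters in capitals (TTGCATCA is the same element read from the other strand).
ASNS (chr7:97872409-97872536, minus strand): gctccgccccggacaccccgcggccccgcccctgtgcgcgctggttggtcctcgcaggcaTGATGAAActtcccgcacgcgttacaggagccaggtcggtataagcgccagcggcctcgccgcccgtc
CHAC1 (chr15:40953221-40953329, plus strand): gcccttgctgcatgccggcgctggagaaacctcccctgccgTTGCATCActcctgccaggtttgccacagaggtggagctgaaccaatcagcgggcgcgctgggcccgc
AARS1 (chr16:70289626-70289753, minus strand): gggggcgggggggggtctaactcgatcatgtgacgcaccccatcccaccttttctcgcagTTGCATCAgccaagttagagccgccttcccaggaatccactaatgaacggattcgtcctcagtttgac
GOT1 (chr10:99430755-99430874, minus strand): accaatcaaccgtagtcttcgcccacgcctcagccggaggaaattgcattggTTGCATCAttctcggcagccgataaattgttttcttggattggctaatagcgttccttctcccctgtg
The matching letters begin 68 bases before the start of ASNS, 187 before AARS1, 198 before GOT1 and 209 before CHAC1.

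The columns carried the markers of a PANC1 culture. All 7 markers of simple and ductal epithelium were detected, among them KRT19 at a signal of 11325 with DMSO and 7857 with ICG-001, and KRT8 at 7608 and 5080. CLDN4, of the same list, was dim, at 152 and 168. All 4 markers of carcinoma lines with mesenchymal traits were above the limit too, with VIM at 16339 and 17090. None of 6 acinar and none of 5 endocrine markers was detected. Of the other cell types, 4 of 6 intestinal, 2 of 5 fibroblast and 1 of 5 leukocyte markers were above the limit, with CDX2 at 206 and 215 and COL1A1 at 181 and 201 as the brightest of the first and second kind. No marker of any kind differed by 1.5-fold between the columns, a size that 2.51% of all rows kept reached.

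Most counts below rest on the DMSO 12 h column as control. DMSO 12 h was the lowest of the 6 PANC1 columns in 335 of the 376 rows counted as higher (89.1%), against 22.8% of all rows kept. It was the highest of the 6 in 53 of the 58 rows counted as lower (91.4%), against 25.1% of rows kept. Rows counted as higher or lower were chosen by their distance from DMSO 12 h, which by itself pushes that column to an extreme. The shares therefore cannot show that the column stood apart. Whether the DMSO 12 h column or the drug sets a given ratio was not tested, so values over DMSO 96 h and over C646 12 h are set beside the main values of the lists and genes described most fully. A ratio of C646 12 h over DMSO 12 h would share the control with the main comparison. The signals of C646 12 h and the ratios of ICG-001 over it are given instead. Ratios of ICG-001 12 h over DMSO 96 h or C646 12 h in turn share the ICG-001 12 h column by which rows were chosen.

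At a threshold of 1.5-fold over DMSO 12 h, 376 rows were higher (2.17% of rows kept) and 58 were lower (0.335%), so that 86.6% of the 434 changed rows (2.51% of rows kept) were higher. At 2-fold, 60 rows were higher and 1 was lower, and 19 rows were at least 3-fold higher. RNA was pooled over each culture, so fewer cells expressing a gene and less RNA per cell cannot be told apart. The log2 ratio over all rows kept had a median of 0.00 and 5th and 95th percentiles of -0.31 and 0.40. At the 1.5-fold line, the smallest rise counted was 0.588 on the log2 scale (LOC653829) and the largest not counted was 0.585 (FAM53A). Rows that rose had a median signal of 552.5 with DMSO and 1006 with ICG-001, while rows that fell had medians of 1247 and 815. The median of all rows kept was 238.8 with DMSO. Background was not subtracted from the signals, so the ratios of dim rows understate their changes. Both the number of changed rows and the split moved with the processing and the control. After normexp background correction and renewed quantile normalization 857 rows were higher and 386 lower (68.9% higher). Over DMSO 96 h, 133 rows were higher and 95 lower (58.3% higher). At a threshold of 1.2-fold, 1649 were higher and 1297 lower (56.0% higher).

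**Figure D1:**
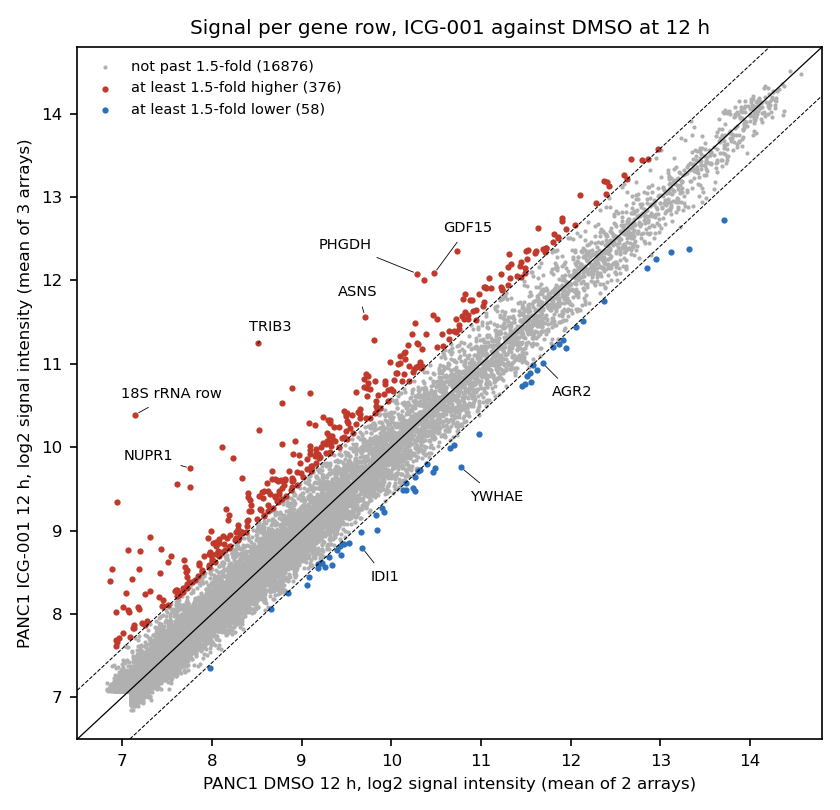
Each point is 1 of the 17310 rows kept, with its log2 signal intensity in DMSO 12 h on the x axis and in ICG-001 12 h on the y axis. The solid line marks equal signals and the dashed lines 1.5-fold in either direction; the 376 rows that were higher (red) reach farther from the line than the 58 that were lower (blue).

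By kind of row, protein-coding genes made up 260 of the rises and 38 of the falls, from 11956 rows kept. That is 2.17% higher, equal to the share over all rows. Long non-coding RNAs were higher in 19 of 360 rows (5.28%) and lower in none at this threshold. Pseudogenes were higher in 16 and lower in 12 of 1140 rows (1.05% lower, against 0.335% overall), and the probes of such rows can bind the parent gene's RNA, which leaves their identity uncertain.

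The highest medians of any lists were those of ATF4-linked genes. Of 58 detected genes in 4 lists (regulators and effectors, amino acid synthesis, amino acid transport, cytosolic tRNA charging), 29 were at least 1.5-fold higher (against 2.17% of all rows kept), none was lower at that threshold, and 52 had a log2 ratio above 0 (against 49.8% of all rows kept). Their median log2 ratio was 0.61, against 0.00 over all rows kept. All lists were chosen with earlier results of these data known. These 4 include NUPR1, which the study named among the top rises with ICG-001 in PANC1. Their rank and counts are therefore not independent evidence.

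ATF4 itself had a signal of 1417 with DMSO 12 h and 3070 with ICG-001 12 h, a log2 ratio of 1.12. Its signal was 2475 in DMSO 96 h, 1752 in C646 12 h and 3570 in ICG-001 96 h. Both ICG-001 columns thus lay above both DMSO columns. In the list of regulators and effectors, 13 of 16 genes were higher, with a median log2 ratio of 1.08. The 3 that did not reach the threshold were JDP2 (0.44), the lipoprotein receptor VLDLR (0.25) and ATF5 (0.03).

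TRIB3, a pseudokinase that restrains ATF4 and AKT signalling, had the largest rise of any gene with a current symbol other than ribosomal RNA. Its signal went from 366 with DMSO 12 h to 2427 with ICG-001 12 h, a 6.63-fold difference, and stood at 895 in DMSO 96 h, 539 in C646 12 h and 3832 in ICG-001 96 h. ICG-001 was therefore higher than every PANC1 column without it. NUPR1, a small stress-induced chromatin protein, had a signal of 217 with DMSO 12 h and 859.6 with ICG-001 12 h, a log2 ratio of 1.99. Its signal was 206 in C646 12 h and 497 in DMSO 96 h, so C646 at 12 h was at the level of DMSO 12 h. In HCT116, where NUPR1 was dim (151 with DMSO and 167 with ICG-001), its log2 ratio was 0.14.

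DDIT4 (REDD1), an inhibitor of mTORC1, had a signal of 1321 with DMSO and 4112 with ICG-001. STC2, a secreted glycoprotein, had signals of 440.4 and 1050. Both were also bright in DMSO 96 h, at 3197 and 956, which leaves log2 ratios over that column of 0.36 and 0.14 in place of 1.64 and 1.25. CEBPB and CEBPG, partners of ATF4, had log2 ratios of 1.23 and 1.04. PPP1R15A (GADD34), which restores eIF2 activity, had a ratio of 1.12, and DDIT3, the transcription factor CHOP, one of 0.82. NIBAN1 is represented by 2 rows of the table, whose log2 ratios were 1.15 (FAM129A) and 0.81 (C1orf24). SESN2 and CHAC1 were under the limit with DMSO and at least 1.51-fold and 1.55-fold higher with ICG-001.

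Amino acid synthesis genes followed, with 7 of 14 higher and a median log2 ratio of 0.76. The serine pathway showed large and unequal steps over DMSO 12 h. PHGDH, its first enzyme, had a signal of 1252 with DMSO 12 h and 4332 with ICG-001 12 h (log2 ratio 1.79), and PSAT1, the second, had 476 and 1676 (1.82). Over DMSO 96 h the ratios of PHGDH and PSAT1 were 0.38 and 0.76, so PHGDH did not pass 1.5-fold there. Over C646 12 h they were 0.97 and 1.37. PSPH, the last enzyme, had a ratio of 0.31 over DMSO 12 h and did not reach 1.5-fold. Downstream, the mitochondrial folate enzyme MTHFD2 had a ratio of 0.95 over DMSO 12 h and SHMT2 one of 0.36. The row LOC729779, a PSAT1 pseudogene (PSAT1P3), had a ratio of 1.64, and its probe may read PSAT1 RNA.

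ASNS, which makes asparagine and carries the element shown above 68 bases before its start, had a signal of 836 with DMSO 12 h and 3035 with ICG-001 12 h, a 3.63-fold difference. It stood at 2119 in DMSO 96 h, 1246 in C646 12 h and 3846 in ICG-001 96 h, so much of its distance to DMSO 12 h is absent over DMSO 96 h (log2 ratio 0.52). The transaminases GPT2 and GOT1 had ratios of 1.10 and 1.01, and GOT1 kept 0.90 over DMSO 96 h. CBS, the first enzyme of transsulfuration, had a ratio of 1.48 and CTH, the next, one of 0.57. In proline synthesis PYCR1 had 0.40 and ALDH18A1 0.07, both short of the threshold.

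Among amino acid transporters, 4 of 12 detected genes were higher, with a median log2 ratio of 0.39. They were SLC7A5 and SLC3A2, the light and heavy chains of the large neutral amino acid exchanger, the cationic transporter SLC7A1, and the cystine transporter SLC7A11. SLC7A5 had a signal of 1702 with DMSO 12 h and 5225 with ICG-001 12 h. It was also at 4118 in C646 12 h, so the log2 ratio of ICG-001 over C646 was 0.34, the smallest of the 4 transporters. SLC3A2 went from 544 to 1249 and stood at 650.2 in C646 12 h, a ratio of 0.94 over C646. SLC7A11 was under the limit with DMSO, at 125, and at least 1.54-fold higher with ICG-001. SLC38A2, a glutamine carrier, had a ratio of 0.16 and SLC1A5 one of 0.27.

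Of 16 cytosolic aminoacyl-tRNA synthetases, which attach amino acids to their tRNAs, 5 were higher and none was lower at 1.5-fold, with a median log2 ratio of 0.34. The 5 were AARS1 (0.85), CARS1 (0.76), EPRS1 (0.73), YARS1 (0.73) and WARS1 (0.66). GARS1, MARS1, QARS1 and SARS1 could not be matched to a row and are not described. The 16 detected mitochondrial synthetases had no member past 1.5-fold (against 2.51% of all rows kept in either direction). Their median was 0.01, running from -0.34 (EARS2) to 0.30 (AARS2). The ER chaperones and other unfolded protein response genes had a median of -0.05, with HERPUD1 alone higher (0.74) of 19, HSPA5 (BiP) at 0.36 and calreticulin (CALR) at -0.56. ATF6, an ER-bound transcription factor outside that list, had a signal of 1002 with DMSO and 1644 with ICG-001 (0.71).

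**Figure D2:**
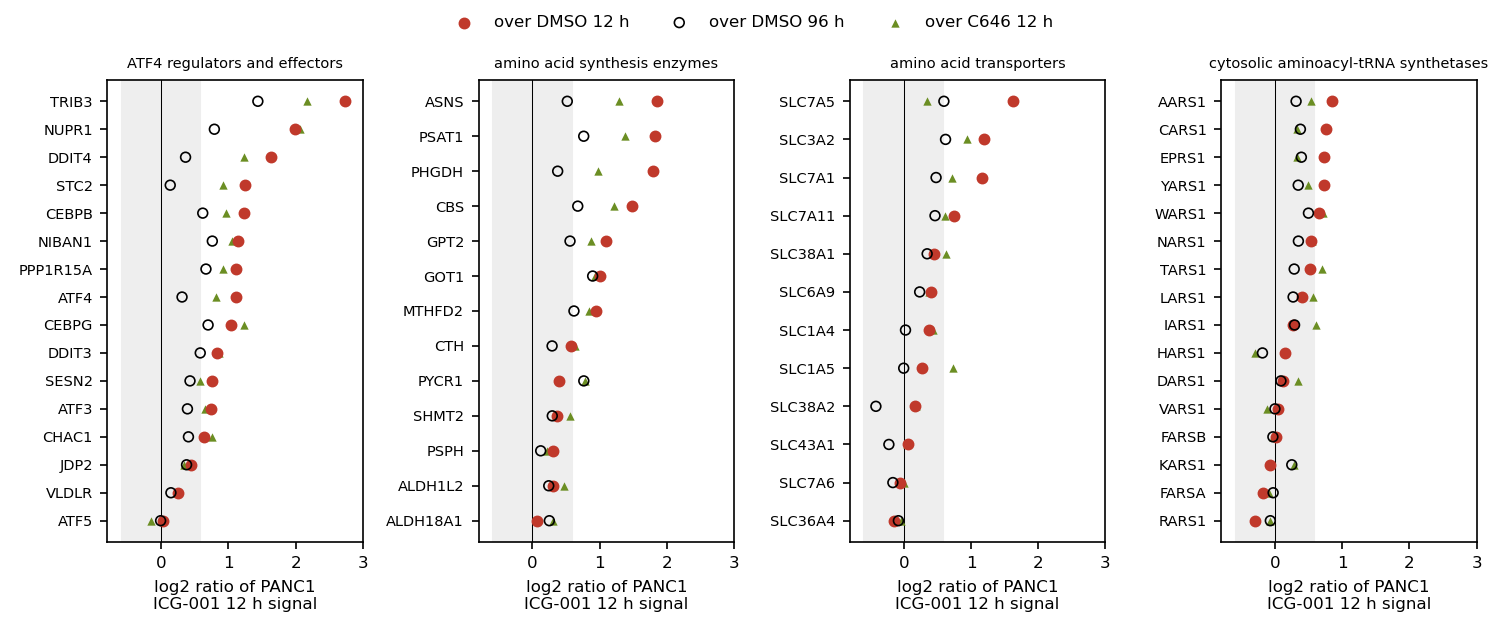
Log2 ratios of PANC1 ICG-001 12 h over DMSO 12 h (red), over DMSO 96 h (open circles) and over C646 12 h (green triangles) for 57 of the 58 detected genes of 4 ATF4-linked lists; the grey band is within 1.5-fold. For the regulators the median was 1.08 over DMSO 12 h, 0.42 over DMSO 96 h and 0.89 over C646 12 h.

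The size of the ATF4-linked rise depended on the control column. Over DMSO 96 h the median log2 ratio of the regulators was 0.42, that of amino acid synthesis 0.45, that of the transporters 0.13 and that of the cytosolic synthetases 0.28. Of the 58 genes, 12 were at least 1.5-fold above both DMSO columns (against 0.514% of all rows kept) and 47 had a ratio above 0 over DMSO 96 h (against 51.3%). Over C646 12 h the 4 medians were 0.89, 0.82, 0.41 and 0.33. Of the 29 genes that were higher over DMSO 12 h, all 29 were also above C646 12 h, with a median of 0.87. Both ratios use the ICG-001 12 h column by which these genes were chosen, so this count is not separate support. The other 347 rises had a median of -0.27 over C646 12 h, and 126 of them were above 0. The rises over DMSO 12 h thus included genes that stood higher with ICG-001 than with C646, and a larger number that did not.

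Only 36 of the 17310 rows kept (9.6% of the 376 rises) were at least 1.5-fold above DMSO 12 h, DMSO 96 h and C646 12 h alike. Over all rows, 0.771% were higher than DMSO 96 h and 1.59% higher than C646 12 h by that measure. Of the 36, 11 belong to the 4 ATF4-linked lists, namely TRIB3, NUPR1, PSAT1, CBS, CEBPB, SLC3A2, NIBAN1 (row FAM129A), PPP1R15A, CEBPG, GOT1 and MTHFD2. These lists held 29 of the 376 rises and 58 of the 17310 rows kept. The 36 rows are not 36 separate genes. They include a further NIBAN1 row (C1orf24), the PSAT1 pseudogene row LOC729779 and an unmatched row P8, a name the study also gives for NUPR1. Others of the 36 are described next, and the rule behind the 36 was set after values had been seen. PCK2, the mitochondrial enzyme that turns oxaloacetate into phosphoenolpyruvate, had a signal of 196 with DMSO 12 h, 332 with DMSO 96 h, 202 with C646 12 h and 754 with ICG-001 12 h. BEX2, a small adaptor protein, had 278, 488, 286 and 1022 in the same columns. For both genes the C646 12 h and DMSO 12 h columns were close and ICG-001 12 h was far above them. IRF1, an interferon-responsive transcription factor, had 217, 422, 473 and 736, with C646 12 h between the DMSO and ICG-001 columns.

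Further members of the 36 came from several functions. HMOX1, which breaks down haem, had a log2 ratio of 1.02 over DMSO 12 h and 1.17 over C646 12 h. The lymphotoxin gene LTB had 1.10 and 1.16, and the tight junction gene CLDN1 0.99 and 1.17. UPP1, a uridine phosphorylase, had a ratio of 0.99 here and 3.81 in HCT116. S100P was under the limit with DMSO 12 h and at least 1.94-fold higher with ICG-001. MAP1LC3B, an autophagosome protein, had a ratio of 0.70, and the small GTPase gene RND3 one of 0.67. HES4 (0.89), VGF (0.88) and the tubulin gene TUBB2B (0.79) were also among the 36, as were ARHGEF2 (1.01) and TUBE1 (0.94).

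Other large rises were shared by more columns. MEG3, a long non-coding RNA, had a signal of 442 with DMSO 12 h, 986 with DMSO 96 h, 1476 with ICG-001 12 h and 1579 with C646 12 h. ULK1, a kinase that starts autophagy, had 369.6, 547, 1185 and 815. MEG3 was thus about as bright with C646 as with ICG-001, while ULK1 with C646 lay between. GDF15, a secreted stress cytokine, had a signal of 1427 with DMSO 12 h and 4346 with ICG-001 12 h. It was at 3780 in DMSO 96 h and 824 in C646 12 h, so its log2 ratio was 1.61 over DMSO 12 h, 0.20 over DMSO 96 h and 2.40 over C646 12 h. TXNIP, an arrestin-like brake on glucose uptake, had ratios of 1.30, 0.88 and 0.47 over the same columns, and ULBP1, a ligand of the receptor NKG2D, had 1.35, 0.30 and 1.12.

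**Figure D3:**
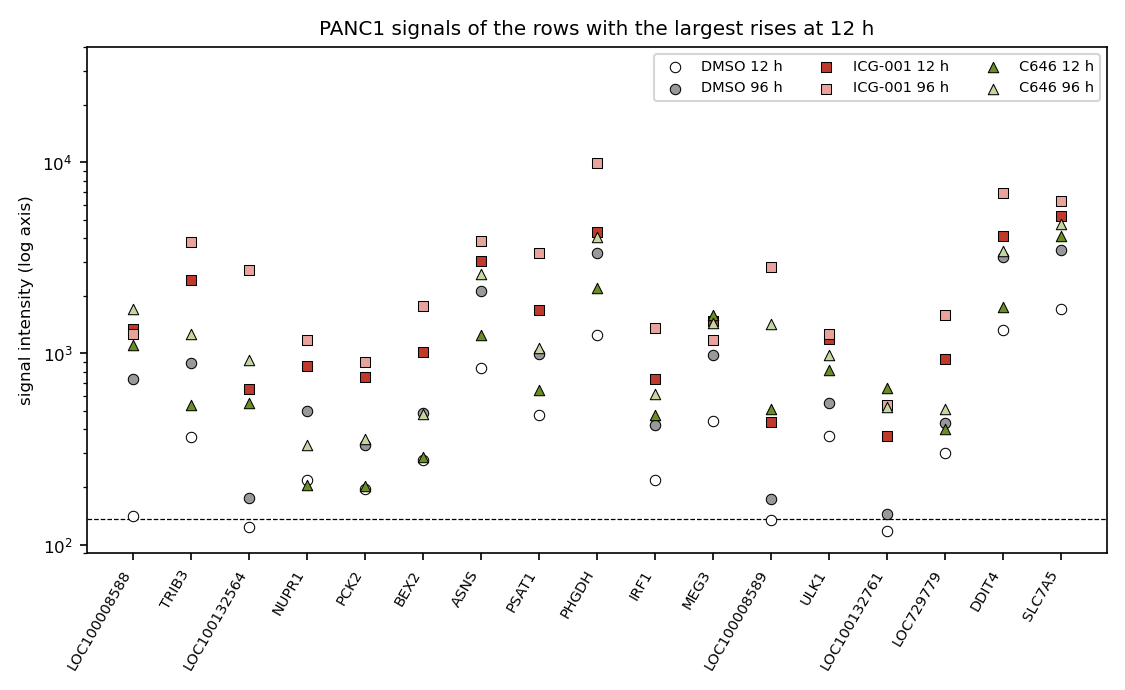
Signal intensity (log axis) in the 6 PANC1 columns for the 12 largest rises among genes with a symbol and the 5 largest among LOC, small RNA and ribosomal RNA rows; the dashed line is the detection limit of DMSO 12 h. DMSO 12 h (white circle) is lowest or near the lowest throughout, in rows that were selected for a low DMSO 12 h signal relative to ICG-001 12 h. For NUPR1, PCK2 and BEX2 the C646 12 h signal lies beside that of DMSO 12 h.

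Some rows for RNAs without a poly(A) tail had large ratios, while most rows of this class did not reach the threshold. The row for 18S ribosomal RNA (LOC100008588, RNA18SN5) had a signal of 141 with DMSO 12 h and 1340.3 with ICG-001 12 h, a log2 ratio of 3.25. The same row was at 732 in DMSO 96 h and 1109 in C646 12 h, so DMSO 12 h was the lowest of these columns. The log2 ratio of this row was 0.78 for ICG-001 96 h over DMSO 96 h and 1.23 in HCT116 at 12 h. The row for 28S ribosomal RNA (LOC100008589, RNA28SN5) was under the limit with DMSO 12 h, at 134, and at least 3.20-fold higher with ICG-001 12 h, at 438. It was at 173 in DMSO 96 h, 509.5 in C646 12 h and 2841 in ICG-001 96 h. All 5 detected U1 small nuclear RNA rows, which come from near-identical gene copies and cannot be told apart by their probes with certainty, were higher, with log2 ratios from 0.66 to 1.34. Their summed signal was 716 in DMSO 12 h, 1360 in DMSO 96 h, 1585 in ICG-001 12 h and 1877 in C646 12 h. Small and ribosomal RNA rows as a class were higher in 9 of 270 (3.33%, against 2.17% of all rows kept), and 1 was lower. The lower row was RNY4, a Y RNA, with a signal of 645.4 in DMSO 12 h, 386 in ICG-001 12 h and 427 in DMSO 96 h (-0.74). The 5S ribosomal RNA row RN5S9 had a log2 ratio of -0.30, the U6 row RNU6-1 -0.11, the U4 row RNU4-1 -0.04 and RN7SL1, the signal recognition particle RNA, 0.27. The part that such RNA plays in the other rises was not tested.

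Cholesterol synthesis genes were lower by small steps. Of the 11 genes from acetyl-CoA to lanosterol, all 11 had a log2 ratio below 0 (against 8685 of the 17310 rows kept), with a median of -0.29. Of the 11, 2 passed 1.5-fold (against 0.335% of all rows kept). IDI1, which isomerises isopentenyl diphosphate, had a signal of 817 with DMSO 12 h and 443 with ICG-001 12 h, and stood at 773 in DMSO 96 h and 517 in C646 12 h. ICG-001 12 h thus lay below both DMSO columns and below C646 12 h, with a log2 ratio over DMSO 96 h of -0.80. The 9 genes short of 1.5-fold ran from -0.33 (HMGCS1) to -0.13 (PMVK).

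In the steps from lanosterol to cholesterol, the median log2 ratio of 9 genes was -0.19. MSMO1 (row SC4MOL), a sterol demethylase, had a signal of 711 with DMSO and 574 with ICG-001 (-0.31). HSD17B7 went the other way, from 2413 to 3771 (0.64), and was at 6404 in C646 12 h. INSIG1, a feedback gene under the same control, had a ratio of -0.35, while SCAP, the escort of SREBP, had 0.79 over DMSO 12 h and -0.07 over DMSO 96 h. SREBF2 itself had 0.24. Fatty acid synthesis genes had a median of -0.24, with 10 of 11 below 0 (against 8685 of the 17310 rows kept). None was past 1.5-fold (against 2.51% of all rows kept in either direction). TCACNCCAC, a sterol regulatory element, was found in 313 of 27305 promoters (1.15%) and in 0 of 15 cholesterol synthesis genes with an entry, which says only that these letters are not in that window.

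Over DMSO 96 h the cholesterol medians were -0.38 and -0.40, and over C646 12 h they were -0.06 and -0.12. Both lists thus lay below both DMSO columns by their medians and close to C646 12 h. In ICG-001 96 h over DMSO 96 h, which shares no column with the 12 h comparison, the medians of the 2 lists were -0.80 and -0.94, and 14 of the 20 genes were at least 1.5-fold lower (3.57% of all rows there). In HCT116 at 12 h the medians were -0.83 and -0.48, with 13 of 20 at least 1.5-fold lower (4.35% of all rows there). IDI1 had log2 ratios of -0.88 in PANC1 at 12 h, -1.19 at 96 h and -1.18 in HCT116 at 12 h. DHCR7 had -0.25, -1.68 and -1.12. The values of PANC1 at 12 h were thus the smallest in size of the 3 for most of these genes, a difference that could not be tested with 1 column per group.

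**Figure D4:**
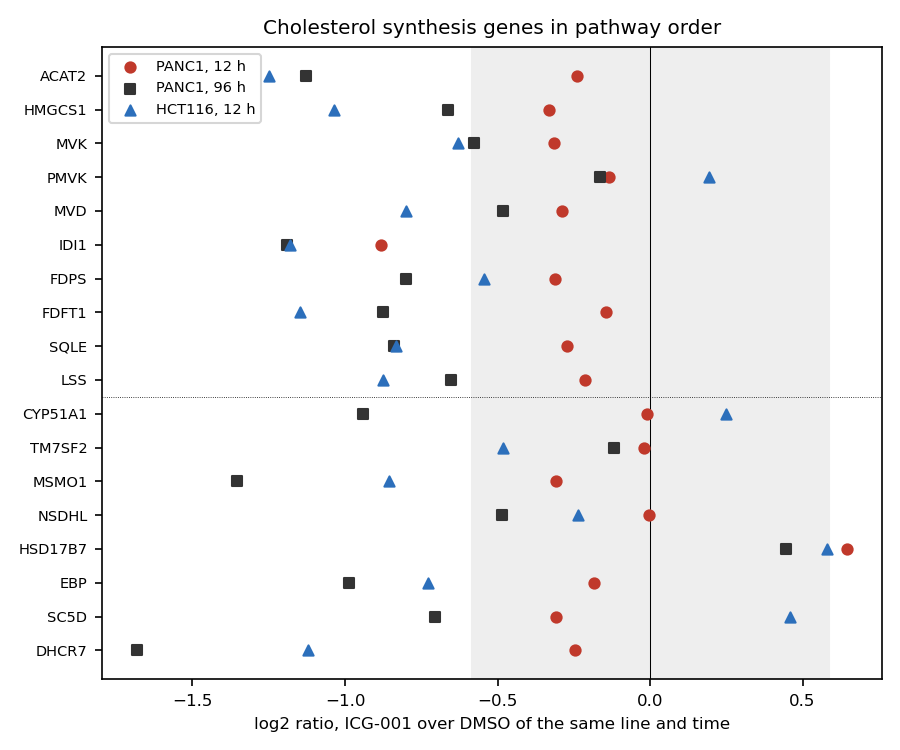
Log2 ratio of ICG-001 over the DMSO column of the same line and time for 18 cholesterol synthesis genes in pathway order, in PANC1 at 12 h (circles), PANC1 at 96 h (squares) and HCT116 at 12 h (triangles). The dotted line separates the steps up to lanosterol from those after it, and the grey band is within 1.5-fold.

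DNA replication genes leaned downward. Of 42 S phase genes detected, 37 had a log2 ratio below 0 (against 8685 of the 17310 rows kept), and the median was -0.33. GMNN (geminin, which blocks relicensing) and MCM6 (a subunit of the replicative helicase) were at least 1.5-fold lower (against 0.335% of all rows kept). GMNN had a signal of 1667 with DMSO and 1039.9 with ICG-001, and 1574 in DMSO 96 h. MCM6 had 3071 and 2023, and 2679 in DMSO 96 h. MCM3, a helicase subunit that is not in that list, had 3951 and 2342, and 3000.2 in DMSO 96 h. All 3 genes were lower with ICG-001 12 h than in both DMSO columns. The S phase median was -0.13 over C646 12 h. It was -0.10 over DMSO 96 h, however, since DMSO 96 h itself had a median of -0.17 against DMSO 12 h. G2/M genes had a median of -0.18 over DMSO 12 h, -0.01 over DMSO 96 h and -0.07 over C646 12 h. None of 52 was past 1.5-fold over DMSO 12 h, against 2.51% of all rows kept in either direction. Cyclins and CDK inhibitors had a median of -0.06, with CCNB1 at -0.56 and CCNA2 at -0.42.

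WNT target genes, the class that ICG-001 was directed at, had a median near 0. In canonical WNT signalling β-catenin joins TCF/LEF factors on DNA and recruits CBP or p300 to raise genes such as MYC and AXIN2. Of 27 target and feedback genes listed, 17 were detected, and their median log2 ratio was -0.06. Of the 17, 1 was at least 1.5-fold higher (against 2.17% of all rows kept) and none was lower at that threshold (against 0.335%). Part of that list was selected by the study from this series, where WNT genes were picked by their change after 96 h of treatment. Its count is therefore not independent evidence. JUN had a signal of 1035 with DMSO 12 h and 1638 with ICG-001 12 h (0.66), but 1460 in DMSO 96 h and 899 in C646 12 h. MYC had 1045 and 1507 (0.53), with 1272 in DMSO 96 h and 1375 in C646 12 h. Neither gene was lower in ICG-001 12 h than in either DMSO column. For ICG-001 96 h over DMSO 96 h the log2 ratio was -0.16 for JUN and 0.18 for MYC. The study reported JUN as decreased and MYC as increased by both drugs in PANC1. FOSL1 had the lowest 12 h ratio of the list, -0.39.

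The genes for the complex itself showed small differences. CREBBP, which encodes CBP, had a signal of 548 with DMSO and 727 with ICG-001 (0.41), and EP300, which encodes p300, had 362 and 326 (-0.15). CTNNB1 (β-catenin) had 223 and 242 (0.12), and TCF7L2 had 245 and 209.8 (-0.22). None of 12 detected genes of the WNT transcription complex and none of 12 histone acetyltransferase genes passed 1.5-fold. Over all rows kept, 2.51% did so in either direction. The medians of these lists were -0.12 and -0.11.

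**Figure D5:**
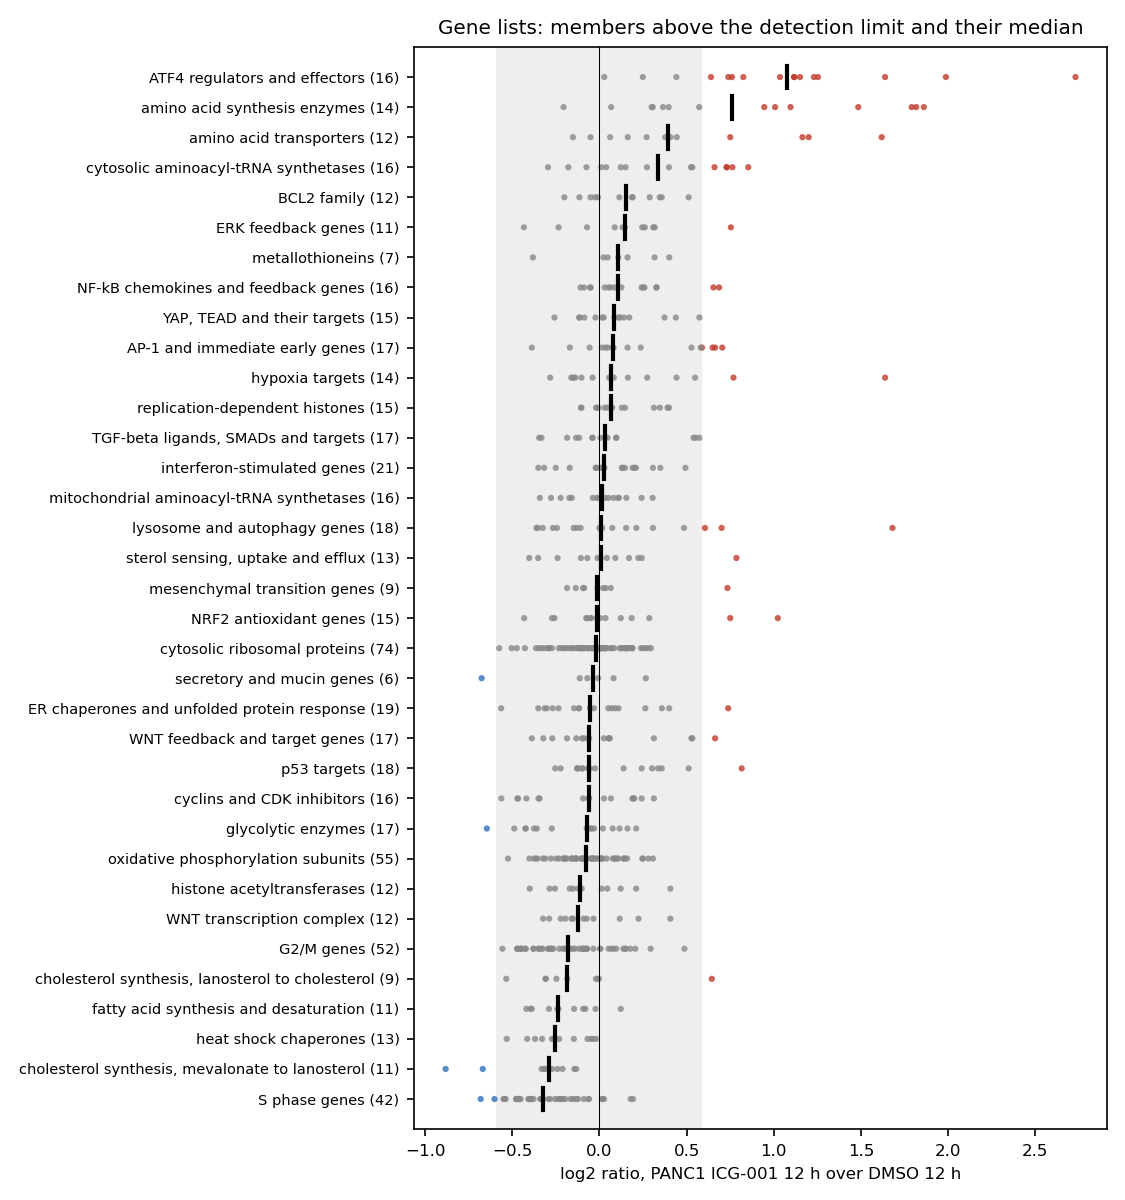
Log2 ratio of ICG-001 12 h over DMSO 12 h for every detected gene of 35 lists (number detected in parentheses), ordered by the list median (black bar). Red and blue points are past 1.5-fold. The 4 ATF4-linked lists hold the highest medians, 0.34 to 1.08, and S phase genes the lowest, -0.33, among lists chosen with earlier results of these data known.

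Other stress and signalling lists had a few members past the threshold, to be read against the 2.17% of all rows kept that were higher. Among AP-1 and immediate early genes 4 of 17 were higher, namely IER3 (0.70), JUN (0.66), ZFP36 (0.65) and KLF6 (0.59), with a median of 0.08. Over DMSO 96 h the same 4 genes had log2 ratios of 0.06, 0.17, -0.06 and 0.51, so none passed 1.5-fold over that column. NF-kB feedback genes had BIRC3 (0.69) and NFKBIA (0.65) higher of 16. Hypoxia targets had DDIT4 (1.64) and VEGFA (0.77) higher of 14, and NRF2 targets had HMOX1 and SLC7A11 higher of 15, while NQO1 was at -0.08. Among p53 targets GADD45A (0.82) alone was higher of 18, and among lysosome and autophagy genes ULK1 (1.68), MAP1LC3B (0.70) and SQSTM1 (0.60) were higher of 18. The phosphatase DUSP5 (0.75) was higher among 11 ERK feedback genes, and the fibronectin receptor subunit ITGA5 (0.73) among 9 mesenchymal genes. Over DMSO 96 h, BIRC3 (0.46), NFKBIA (0.17), DDIT4 (0.36), VEGFA (0.32), SLC7A11 (0.47), SQSTM1 (0.39), DUSP5 (0.54) and ITGA5 (0.43) did not pass 1.5-fold. HMOX1 (0.64), GADD45A (0.78), ULK1 (1.11) and MAP1LC3B (0.69) passed it over that column.

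Heat shock chaperones were all below 0, with 13 of 13 negative log2 ratios (against 8685 of the 17310 rows kept), a median of -0.26 and none past 1.5-fold. DNAJB1 had the lowest at -0.53. Counts past 1.5-fold in this paragraph are to be read against the 2.51% of all rows kept that passed it in either direction. In lists of these sizes a count of 0 says little. No gene passed 1.5-fold among 74 cytosolic ribosomal proteins (median -0.02), 55 oxidative phosphorylation subunits (-0.08), 21 interferon-stimulated genes (0.03), 17 TGF-β genes (0.03), 15 YAP and TEAD genes (0.09), 15 replication-dependent histones (0.07), 12 BCL2 family genes (0.15) or 7 metallothioneins (0.11). Among 17 glycolytic enzymes the row PKM2 (pyruvate kinase) alone was lower, at -0.65, and it was at 0.14 over DMSO 96 h. The same row was at -0.80 for ICG-001 96 h over DMSO 96 h and at -0.98 in HCT116 at 12 h. AGR2, an ER disulfide isomerase of secretory epithelium, was the only member of the 6 secretory genes past the threshold, with a signal of 3294 with DMSO and 2062 with ICG-001.

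Falls were smaller than rises. Their rows had the higher median signal with DMSO 12 h (1247 against 552.5) and the lower with ICG-001 12 h (815 against 1006). Choosing rows by the ratio of these columns favours both orders. YWHAE, the 14-3-3 epsilon gene, was the only row at least 2-fold lower, with a signal of 1751 in DMSO 12 h and 867 in ICG-001 12 h. It was at 862 in DMSO 96 h and 607 in C646 12 h, so DMSO 12 h was the highest of these columns. YWHAE was also lower in comparisons that do not use DMSO 12 h. Its log2 ratio was -1.11 for ICG-001 96 h over DMSO 96 h and -0.95 in HCT116 at 12 h. INO80E, a chromatin remodeller subunit, had 2009 in DMSO 12 h, 1142 in ICG-001 12 h, 1024 in DMSO 96 h and 754 in C646 12 h. Its log2 ratios in the comparisons without DMSO 12 h were -0.58 and -0.80. IGFBP4, which binds insulin-like growth factors, had 913 and 513 at 12 h and 886 in DMSO 96 h, and C646 12 h was lower still at 301. For IGFBP4 ICG-001 12 h was below both DMSO columns. RPL36AL, a ribosomal protein gene, had 8850.4 and 5169 at 12 h, with 8355 in DMSO 96 h and 7796 in C646 12 h. It was the only one of the 58 falls that was at least 1.5-fold below all 3 of these columns. Of the 58, 11 were at least 1.5-fold below DMSO 96 h (0.551% of all rows) and 2 below C646 12 h (0.941%). SUPT16H (-0.72), a subunit of the histone chaperone FACT, CORO1C (-0.73), which binds actin, PAPSS2 (-0.73), which makes the sulfate donor PAPS, the Mediator subunit MED31 (-0.71) and AVPI1 (-0.69) were among the 12 largest falls of genes with a symbol, as was the keratin pseudogene row KRT8P9 (-0.77).

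The rises and falls were followed into columns that were not used to find them. In PANC1 at 96 h, with its own DMSO 96 h control, 164 of the 376 rises were also at least 1.5-fold higher (43.6% of the rises, and 24.6% of the 667 rises there, where 3.86% of rows rose). The ratios of the rises were above 0 in 359 of 376, with a median log2 ratio of 0.53 against 0.75 at 12 h. Of the 17310 rows kept, 8961 had a ratio below 0 at 96 h. Of the 58 falls, 44 were also lower at 96 h (75.9% of the falls, and 7.1% of the 617 falls there, where 3.57% of rows fell), with a median of -0.87 against -0.66 at 12 h. In HCT116 at 12 h, 233 of the 376 rises were also higher (62.0%, and 28.4% of the 821 rises there, where 5.05% of rows rose) and 26 of the 58 falls were also lower (44.8%, and 3.7% of the 708 falls there, where 4.35% of rows fell). In all 3 comparisons, 106 rows were higher and 19 were lower. In neither of the other 2 were 85 of the rises and 7 of the falls past 1.5-fold. No share over all rows was computed for rows shared by all 3, so these are counts only.

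The ATF4-linked lists were followed in the same way. At 96 h, 34 of the 58 genes were at least 1.5-fold higher (3.86% of all rows there), and 12 had a ratio below 0 (against 8961 of the 17310 rows kept). The medians were 0.97 for the regulators, 0.79 for amino acid synthesis, 0.34 for the transporters and 0.13 for the cytosolic synthetases. In HCT116 at 12 h the medians in the same order were 1.11, 0.49, 0.51 and 0.49. There 27 of the 58 genes were higher (5.05% of all rows there) and 8 had a ratio below 0. PHGDH had a log2 ratio of 1.79 in PANC1 at 12 h, 1.57 at 96 h and 0.61 in HCT116, whereas PPP1R15A had 1.12, 0.93 and 2.56. CBS was at 1.48 and 1.40 in PANC1 and was under the HCT116 limit in both columns (137.5 with DMSO and 129.6 with ICG-001). MEG3 was under that limit in both columns as well, at 131.5 and 130.5.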

How the data were processed

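By the methods of the study, signal intensity values were exported by the authors from Illumina GenomeStudio after quantile normalization, with background left in, and replicate arrays were averaged. The deposited table holds 1 intensity column per group and 1 row per gene name. The genome build of the array annotation is not given in the sources used here. The signals within a cell line were compared as deposited, and cell lines only through their ratios. The number of arrays averaged (2 or 3) limits the precision.

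Rows were named through the RefSeq gene table (GRCh38.p14). Of 34687 rows, 17755 matched a current symbol, 3305 an older symbol, 2669 a gene identifier, 144 an older symbol of several genes and 10814 nothing. Promoter sequences came from RefSeq. The 35 gene lists and the genes compared were chosen with earlier results of these data known. Genes named were the 12 largest rises and 12 largest falls with a symbol, up to 4 members per list with the largest absolute log2 ratio, 10 genes of the WNT, ATF4 and sterol pathways, and the 5 largest rises among LOC, small RNA and ribosomal RNA rows. Some genes that this rule names are not reported here. Other genes named were chosen after their values were seen. Where a row was at or under the limit with DMSO, the fold printed is a lower bound, the ICG-001 signal over the limit. In a list, a gene with several rows was represented by 1 row.

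The thresholds were also set at 1.2-fold and 2-fold. Further alternatives were keeping dim rows, a limit at 5 SD, normexp correction (offset 16) with quantile normalization over the PANC1 columns, centred ratios, quantile normalization over all 12 columns, and DMSO 96 h or the mean of both DMSO columns as control. Scripts were tested on simulated data. Python 3.11.15, numpy 2.4.6, pandas 2.3.3, matplotlib 3.10.9, R 4.3.3 and limma 3.58.1 were used.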

Additional observations from a re-analysis of the deposited data

Results flagged for a closer look

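Among the 376 rises, 4 rows went at least 1.5-fold the other way in another ICG-001 comparison, and none of these differences could be tested with 1 column per group. GDF15 had a log2 ratio of 1.61 in PANC1 at 12 h and -0.61 at 96 h. ANGPTL4, a secreted lipase inhibitor, had 0.67 at 12 h and -1.13 at 96 h. IER3 had 0.70 at 12 h and -0.69 at 96 h. RGS2, a regulator of G protein signalling, had 0.89 in PANC1 at 12 h and -1.39 in HCT116 at 12 h.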

How the results depend on the processing

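No paired analysis was possible because each group had 1 column, and arrays could not be left out because single arrays were not used here. Dropping the filter, a limit at 5 SD, centring, and quantile normalization over 12 columns each kept both counts within 1.5 times and, of 60 named genes past 1.5-fold, all in direction, with 59 or 60 still past it; without the filter the hypoxia median was -0.027. A 1.2-fold threshold gave 1649 rows higher and 1297 lower (56.0% of changed rows higher), and a 2-fold threshold 60 and 1. Normexp gave 857 and 386, with medians of 1.33 for ATF4 regulators, 1.00 for amino acid synthesis and -0.40 for the steps to lanosterol.

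The control moved counts, medians and signs. With DMSO 96 h, 133 rows were higher and 95 lower (58.3% higher), 55 of the 60 genes kept their direction and 23 passed 1.5-fold. The medians were 0.42 for ATF4 regulators, 0.45 for amino acid synthesis, -0.38 and -0.40 for early and late cholesterol synthesis, -0.10 for S phase and -0.0068 for G2/M. The sign turned for the medians of AP-1 (-0.0318), ERK feedback (-0.0322), hypoxia (-0.20), YAP (-0.0021) and histones (-0.0663), and for YWHAE (0.0074), INO80E (0.16), SCAP (-0.0656), ZFP36 (-0.0616) and PKM2 (0.14). With the mean of both DMSO columns, 198 rows were higher and 29 lower, and the medians were 0.71, 0.68, -0.28 for late cholesterol synthesis, -0.20 for S phase and -0.11 for G2/M, with hypoxia at -0.0845 and histones at -0.014. The cause was not tested.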

Other observations

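A set of rises outside every list was brighter with C646 than with ICG-001 at 12 h, chosen here after the values were seen. NLRP8, a gene known from oocytes, had a signal of 858 with DMSO 12 h, 1751 with ICG-001 12 h and 2789 with C646 12 h. CATSPER2, a sperm calcium channel gene, had 1335, 2617 and 3505 in the same columns. The zinc finger genes ZNF652 and ZNF738 had log2 ratios of 1.04 and 0.98 over DMSO 12 h, and of -0.52 and -0.59 over C646 12 h. LMOD3, a muscle actin regulator, had 0.96 and -0.79. Over DMSO 96 h these 5 rows had ratios of 0.45, 0.65, 0.78, 0.31 and 0.68 in the order named.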
